A study of Mus musculus with 2 samples.

Results

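The genes described here are 50 genes of the cell division cycle and of cell cycle exit, chosen by name out of 21938 protein-coding genes of the mouse genome (build mm10, GENCODE annotation), and the open chromatin at them. An ATAC-seq peak belonged to a gene where its summit lay within the gene body or 10 kb on either side of it. By this rule the 50 genes held 270 of the 117165 peaks of control late retinal progenitor cells (RPCs) and 270 of the 124935 peaks of Ngn3-overexpressing (Ngn3-OE) late RPCs. ATAC-seq uses the Tn5 transposase to cut and tag DNA that is not covered by nucleosomes, so that read ends pile up over open sites. The height of a peak is given here in tags, the pileup at its summit as a whole number, which the lists do not state and which was worked out from each peak's −log10 p and its enrichment over local background.

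Both libraries came from retinas of newborn mice that were electroporated in vivo at postnatal day 1 and from which GFP-labelled late RPCs were sorted at day 2 after electroporation (DAE 2), 50000 cells per library. Both groups were electroporated and GFP-positive, and the Ngn3-OE cells carried plasmid that overexpresses Neurog3 (Ngn3), a proneural basic helix-loop-helix transcription factor. The promoter of the plasmid, what the control plasmid carried and how many pups were pooled are not given in the sources used here. Each group had 1 library, so no difference between the conditions could be tested, and every interval given below is a 95% interval for counting error alone that holds no animal-to-animal or preparation spread. In a bulk library of sorted cells, fewer cells with an open site cannot be told apart from a site that is less open in every cell.

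Progenitors divide as long as D-type cyclins, bound to Cdk4 or Cdk6, phosphorylate the retinoblastoma (pocket) proteins and so free the E2F factors, which switch on genes for DNA replication. E-type and A-type cyclins with Cdk2 carry the cell into and through S phase, and B-type cyclins with Cdk1 carry it through mitosis. CDK inhibitors of the Cip/Kip family (the Cdkn1 genes) and the INK4 family (the Cdkn2 genes) oppose these kinases, and in the retina Ccnd1 is the D cyclin of dividing progenitors while Cdkn1b and Cdkn1c are known for their part in cell cycle exit.

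The sequences that the results below turn on were taken from the mouse genome of the same build (GRCm38). The peak regions found in both libraries whose summit height differed 2-fold or more are shown on the plus strand, except for those at Cdc25c and in the last exon of Cdk6 and for a promoter region of E2f8 that lies in a window given further on. Capitals mark the core E-box letters CATCTG, which read CAGATG from the opposite strand, and the SOX letters, which are either CCATTGT or else CCTTTGT, on both strands. The Cdk6 regions are intronic, with fewer tags in Ngn3-OE at the leading pair and more at the last.
Cdk6, chr5:3451062-3451240: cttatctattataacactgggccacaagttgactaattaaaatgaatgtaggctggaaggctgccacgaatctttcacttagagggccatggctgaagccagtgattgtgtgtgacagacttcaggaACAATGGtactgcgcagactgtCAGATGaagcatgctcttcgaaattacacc
Cdk6, chr5:3451400-3451561: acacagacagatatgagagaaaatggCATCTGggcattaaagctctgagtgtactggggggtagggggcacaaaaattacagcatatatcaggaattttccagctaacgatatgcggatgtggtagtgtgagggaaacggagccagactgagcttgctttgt
Cdk6, chr5:3491221-3491493: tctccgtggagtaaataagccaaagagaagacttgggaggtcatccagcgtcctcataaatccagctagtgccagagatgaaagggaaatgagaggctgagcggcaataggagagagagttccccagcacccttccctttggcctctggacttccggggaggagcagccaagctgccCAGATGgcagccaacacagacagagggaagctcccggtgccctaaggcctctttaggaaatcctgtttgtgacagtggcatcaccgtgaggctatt
The region upstream of E2f1 had fewer tags in Ngn3-OE, and the regions at Rbl1 and Ccnd2 (introns) and upstream of Cdkn1b had more.
E2f1, chr2:154577440-154577703: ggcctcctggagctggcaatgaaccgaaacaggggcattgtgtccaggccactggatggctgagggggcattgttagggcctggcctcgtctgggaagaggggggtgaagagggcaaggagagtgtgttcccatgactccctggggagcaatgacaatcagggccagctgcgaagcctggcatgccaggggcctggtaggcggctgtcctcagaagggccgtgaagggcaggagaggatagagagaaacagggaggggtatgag
Rbl1, chr2:157181540-157181765: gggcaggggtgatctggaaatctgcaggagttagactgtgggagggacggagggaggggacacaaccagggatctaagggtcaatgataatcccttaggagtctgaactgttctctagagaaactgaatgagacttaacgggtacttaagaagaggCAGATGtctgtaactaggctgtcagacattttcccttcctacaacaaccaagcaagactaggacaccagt
Ccnd2, chr6:127142152-127142293: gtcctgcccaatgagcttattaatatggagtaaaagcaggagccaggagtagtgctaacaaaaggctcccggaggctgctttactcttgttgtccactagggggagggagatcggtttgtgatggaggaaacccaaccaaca
Cdkn1b, chr6:134917275-134917378: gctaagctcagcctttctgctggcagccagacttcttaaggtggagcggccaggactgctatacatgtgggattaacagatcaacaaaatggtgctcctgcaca
No core E-box letters occurred in the E2f1, Ccnd2 and Cdkn1b regions, whereas the Rbl1 region and all 3 Cdk6 regions shown held them, whichever library had more tags. The regions differ in length, and no share over all regions is given beside these matches.

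Peaks present in Ngn3-OE alone that held the study's full E-box consensus within 100 bp of the summit are represented by those at Cenpe (intron), Mcm5 (downstream of the gene) and Cdkn1a (upstream of the gene), again on the plus strand with the core letters in capitals.
Cenpe, chr3:135259021-135259104: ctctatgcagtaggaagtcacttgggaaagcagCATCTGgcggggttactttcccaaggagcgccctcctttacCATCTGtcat
Mcm5, chr8:75134760-75134956: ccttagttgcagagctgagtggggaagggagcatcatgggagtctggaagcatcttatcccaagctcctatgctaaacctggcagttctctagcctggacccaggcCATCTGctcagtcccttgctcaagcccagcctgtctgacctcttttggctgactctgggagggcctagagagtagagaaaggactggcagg
Cdkn1a, chr17:29087043-29087150: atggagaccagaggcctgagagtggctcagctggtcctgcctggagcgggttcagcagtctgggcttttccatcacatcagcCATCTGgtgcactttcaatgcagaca

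RefSeq promoter windows of 300 bases, from 250 before to 50 after the start site (build GRCm38.p6), are shown for Cdc25a, the promoter with the lowest Ngn3-OE to control ratio, for E2f8, which had a second promoter region past 2-fold, and for Cdk1 and Mcm6, whose windows carry several of the letters searched. Each runs 5′ to 3′ along the gene's strand, with CCAAT (the NF-Y box), TTTGAA (the cell cycle homology element, CHR) and TTTCGCGC or TTTGGCGC (E2F) in capitals on either strand.
Cdc25a promoter, chr9:109875329-109875628, plus strand: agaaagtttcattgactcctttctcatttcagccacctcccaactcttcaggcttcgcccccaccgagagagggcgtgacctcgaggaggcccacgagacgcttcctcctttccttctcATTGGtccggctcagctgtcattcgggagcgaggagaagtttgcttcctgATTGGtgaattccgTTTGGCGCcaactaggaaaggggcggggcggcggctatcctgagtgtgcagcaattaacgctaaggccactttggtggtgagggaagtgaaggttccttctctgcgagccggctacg
E2f8 promoter, chr7:48881547-48881846, minus strand: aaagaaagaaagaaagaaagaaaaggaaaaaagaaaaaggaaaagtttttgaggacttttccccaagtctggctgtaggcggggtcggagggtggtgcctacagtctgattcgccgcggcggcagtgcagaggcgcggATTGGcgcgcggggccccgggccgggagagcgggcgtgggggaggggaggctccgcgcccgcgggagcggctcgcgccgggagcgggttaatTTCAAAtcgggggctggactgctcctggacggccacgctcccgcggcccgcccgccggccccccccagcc
Cdk1 promoter, chr10:69352863-69353162, minus strand: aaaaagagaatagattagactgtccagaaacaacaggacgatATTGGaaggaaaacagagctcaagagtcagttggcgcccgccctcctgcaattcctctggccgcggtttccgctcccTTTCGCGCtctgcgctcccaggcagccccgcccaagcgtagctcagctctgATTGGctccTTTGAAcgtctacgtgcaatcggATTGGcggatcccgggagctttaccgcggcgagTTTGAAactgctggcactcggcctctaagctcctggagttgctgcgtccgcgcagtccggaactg
Mcm6 promoter, chr1:128359656-128359955, minus strand: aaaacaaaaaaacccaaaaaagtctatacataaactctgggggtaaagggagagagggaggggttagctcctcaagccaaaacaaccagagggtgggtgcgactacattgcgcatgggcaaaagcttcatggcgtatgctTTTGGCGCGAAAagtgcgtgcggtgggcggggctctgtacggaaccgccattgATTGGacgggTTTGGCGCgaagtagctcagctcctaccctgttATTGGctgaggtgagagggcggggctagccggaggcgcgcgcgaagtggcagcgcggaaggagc

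Letters of cell cycle promoters were counted in these windows. RefSeq windows were found for 39 of the 50 genes (45 windows, each at 1 place in the genome). CCAAT occurred in 32 of the 45 windows (71.1%, Wilson interval 56.6 to 82.3) and in 37.4% of all 32851 RefSeq promoter windows of this length. TTTGAA occurred in 14 (31.1%, 19.5 to 45.7) against 17.9% of all windows, and the E2F letters in 10 (22.2%, 12.5 to 36.3) against 0.813%. Mcm6 and Mycn held the E2F letters 3 times, where matches on opposite strands can overlap and do so in the longest capital run of the Mcm6 window, and Top2a held 6 CCAAT boxes. The core E-box CATCTG was in 2 of the 45 windows (4.44%, 1.23 to 14.8), those of E2f2 and Mycn, against 17.2% of all windows, and the SOX letters were in 3 (6.67%, 2.29 to 17.9) against 9.28%. A match to these letters is a description of the window and not a mapped binding site.

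The labels were checked against the peak lists. The Neurog3 locus had no peak in control and a summit of 1591 tags in Ngn3-OE, at rank 100 of its list. How many of these tags came from plasmid DNA was not tested. Promoter peaks at the progenitor genes Sox2, Pax6, Hes1 and Ccnd1 were present in both libraries. Of 5 markers of other cells, Pecam1 and Cx3cr1 and the globin gene Hbb-bs had no promoter peak in either library, while Cldn5 (8 and 10 tags) and Aif1 (20 and 19 tags) had a peak in both, and their part in the results was not tested. The lists do not state the number of reads. The lowest local background among the peaks of a list, which scales with depth, was 0.2615 tags for control. For Ngn3-OE it was 0.2571 tags, so that the depth ratio was 0.983, by which all ratios of tags below are scaled. Ratios of peak counts are not scaled.

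Cell cycle genes were open in both libraries. All members except Rrm2, which encodes a subunit of ribonucleotide reductase, had peaks in control and in Ngn3-OE. The number per gene ran from 0 to 25 (control) and from 0 to 30 (Ngn3-OE), with a median of 5 in each against 4 for all protein-coding genes, and Cdk6, the longest locus, had the most. Rrm2 had no peak in either library, and the nearest summit lay 27.4 kb from the gene in control and 27.3 kb in Ngn3-OE. Its promoter window is found at 1 place in the genome, and 3942 protein-coding genes (18%) likewise had no peak in either list.

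The larger share of the members' peaks sat at promoters. Promoters (a summit within 3 kb of any annotated start site) took 160 of the 270 control peaks (59.3%) and 156 of the 270 Ngn3-OE peaks (57.8%), against 39.3% and 38.5% of the peaks in the same windows of all protein-coding genes. The share of all peaks, 31.3% and 30.8%, also counts DNA far from genes, which the window leaves out. Of these promoter peaks, 92 in control and 89 in Ngn3-OE were nearest to a start site of the member itself, and 68 and 67 were nearest to that of a neighbouring gene. Introns took 70 and 71 peaks and intergenic DNA 30 and 32.

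Overlap with the other library's list by 1 bp or more made a peak shared. In control, 232 of the 270 peaks were shared (85.9%, 81.3 to 89.6) and 38 were control-only (14.1%, 10.4 to 18.7), where 21.7% of all control peaks were control-only. In Ngn3-OE, 230 were shared (85.2%, 80.5 to 88.9) and 40 were Ngn3-OE-only (14.8%, 11.1 to 19.5), where 26.6% of all Ngn3-OE peaks were. The members had nearly as many peaks without a counterpart in control as in Ngn3-OE, with a log2 ratio of 0.07 (-0.60 to 0.75). Over all peaks the ratio was 0.39 (0.36 to 0.41), which the members' interval included. The members' ratio depended on the setting: when both lists were restricted to peaks of −log10 q 5 or more, 22 control-only and 29 Ngn3-OE-only peaks gave 0.399, and with the 50000 strongest peaks of each list 20 and 16 gave -0.322. The ratio over all peaks under these restrictions is not given. Counts of unshared peaks also depend on position: at promoters 8.12% of the members' control peaks and 7.69% of their Ngn3-OE peaks were without a counterpart, against 13.9% and 18.4% of all promoter peaks. The members' promoter peaks include those of neighbouring genes, and the shares were not matched for peak height. Away from promoters the shares were 22.7% in control and 24.6% in Ngn3-OE, against 25.3% and 30.3%, and there the members' intervals included the value for all peaks.

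**Figure D1:**
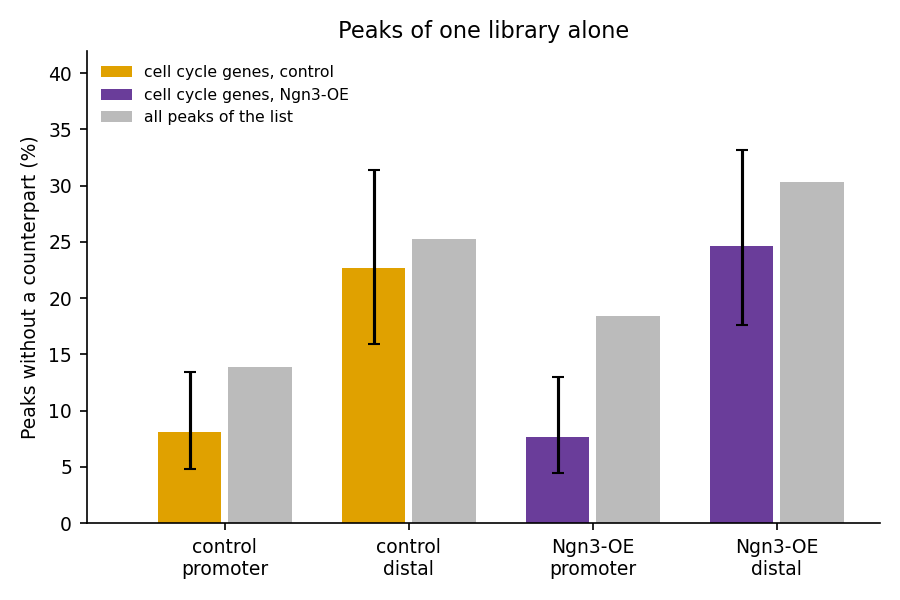
Share of peaks without a counterpart in the other library (percent, y axis), for promoter and distal peaks of each library; coloured bars are the 50 cell cycle genes with 95% Wilson intervals (counting error only) and grey bars are all peaks of the list. At promoters the members' shares, 8.12% and 7.69%, lay under those of all peaks, 13.9% and 18.4%, and the distal intervals included the grey value. Promoter peaks of neighbouring genes are included, and peak heights were not matched.

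Gene by gene, Ngn3-OE-only peaks outnumbered control-only peaks at 13 members (26% of the 50), and the reverse held at 12 (24%). Among all protein-coding genes with a peak, 42.2% had an excess of Ngn3-OE-only peaks and 23.0% an excess of control-only peaks. The members' counts became 17 and 11 with both lists restricted to −log10 q 5 or more, and 9 and 15 with the 50000 strongest peaks of each. No share over all genes is given under these restrictions, so these counts cannot be set against 42.2% and 23.0%. Without the restrictions, the other 25 members had equal numbers, 22 of them none of either kind. Cdk6 had the most, with 10 Ngn3-OE-only and 6 control-only peaks. Ccnd3 had 6 control-only and 2 Ngn3-OE-only peaks, and Cdc6, a loader of the replicative helicase, had 4 and 1. Bub1b, a spindle checkpoint kinase, and Rb1 had 3 Ngn3-OE-only peaks each and no control-only peak.

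Peaks without a counterpart were low. Their median was 6 tags in control and 5 in Ngn3-OE, where shared peaks of the members had a median of 22 tags in each library, and the highest had 17 and 22 tags. A −log10 q of 5 was reached by 9 control-only and 11 Ngn3-OE-only peaks. The same values over all peaks without a counterpart are not given, so low height is not shown to be particular to these genes.

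Among the Ngn3-OE-only peaks with the highest −log10 q, that at chr5:3341417-3341516, 2423 bp upstream of the nearest Cdk6 start site of the GENCODE basic set and overlapping the annotated 5′ end of the gene (3341485), which is not among those start sites, had 22 tags (13.8 to 33.3, exact Poisson interval) and a −log10 q of 10.7. The Cenpe intron peak printed above had 10 tags (4.8 to 18.4), and Cenpe encodes a kinesin motor of the kinetochore. By position, a pair of the set belong to neighbours, namely a 15-tag peak in the window of Mcm7 at chr5:138155448-138155555, 200 bp from the Zfp113 start site, and an 11-tag peak in the window of Bub1 at chr2:127792213-127792280, 249 bp from that of Mtln. The remaining peak, with 9 tags, was in an intron of Cdk6 at chr5:3432336-3432417.

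On the control side the peak with the highest −log10 q lay in a Ccnd3 intron at chr17:47529057-47529185, with 9 tags (4.12 to 17.1) and a −log10 q of 9.82. A second Ccnd3 intron peak, chr17:47542447-47542680, had 7 tags. The E2f2 promoter had an 11-tag peak, 281 bp downstream of its start site at chr4:136172614-136172757. Cenpe had a 13-tag peak at -1829 bp from its start site (chr3:135210676-135210740) and an 8-tag intron peak (chr3:135245856-135245970) with SOX letters near the summit. Cenpe therefore had peaks of both kinds among those with the highest −log10 q.

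Promoters of the members were among the strongest peaks of both lists, and they differed little between the libraries. The strongest promoter peak of the 49 members that had one reached a median rank of 96 in control and 95.2 in Ngn3-OE (percentile of −log10 q in its own list, 100 being the strongest), against 91.7 and 91.8 for all protein-coding genes with a promoter peak. The median height was 70 tags in control and 66 in Ngn3-OE, against 43 and 44 for all genes. Rank 90 or higher was reached by 39 members (79.6%) in control and 38 (77.6%) in Ngn3-OE, against 55.2% and 55.6%. The median G+C content around these summits was 64.2% and 63.7%, close to the 64.2% and 64.7% of all genes.

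The log2 ratio of Ngn3-OE over control tags at this peak had a median of -0.01 (interquartile range -0.13 to 0.15) over the 49 members, with 22 above 0, 26 below and Cdk6 at 0.00. Over 14884 genes the median was 0.06 (-0.14 to 0.26). The members ran from -0.75 to 0.42, so none reached 2-fold. The interval of the ratio lay above 0 for 0 members, where it did for 2.52% of all genes, and below 0 for 1 member, Cdc25a (2.04% of the 49), where it did for 1.05% of all genes. No test over replicates was possible with 1 library per group, so these counts have no p-value. At Ccnd1 and Ccnd3 the strongest peaks of both libraries did not overlap, and their ratios at a fixed region are given below.

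**Figure D2:**
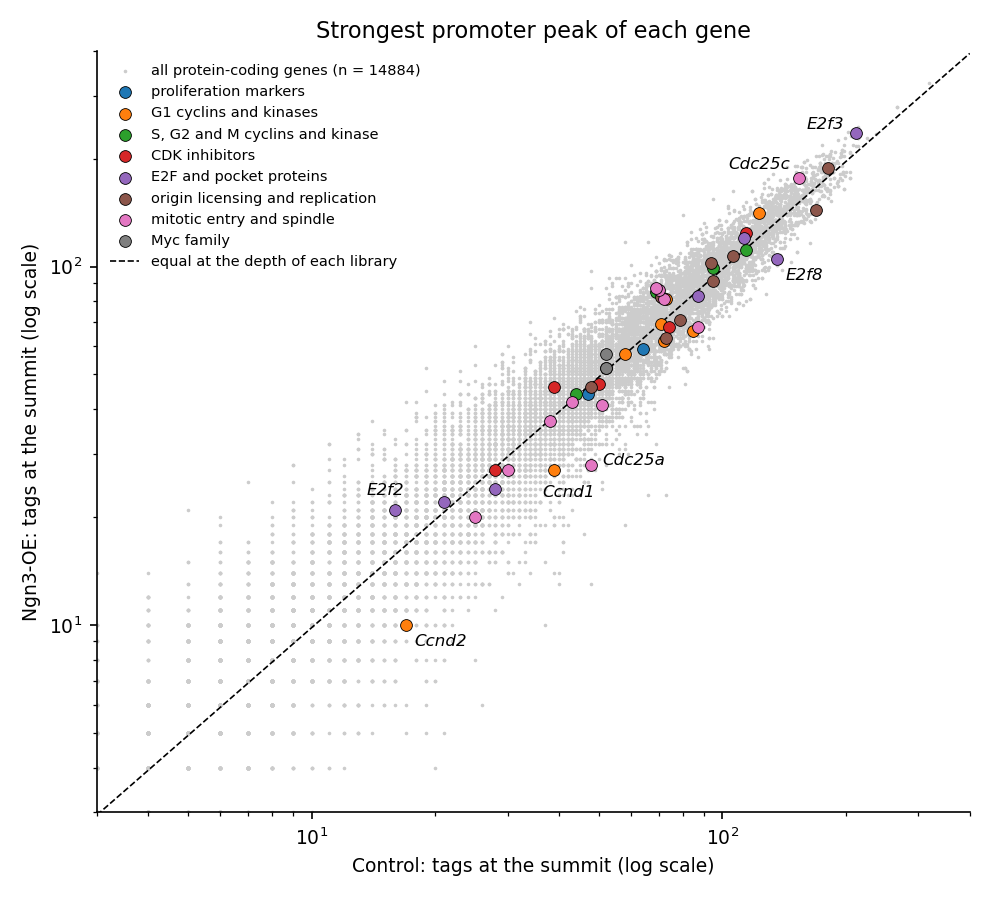
Tags at the summit of the strongest promoter peak in control (x axis) and Ngn3-OE (y axis), both on log scales; each grey point is a protein-coding gene (14884), each coloured point a cell cycle gene, and the dashed line marks equal height after scaling for depth. The 49 members follow the line from 16 to 212 tags in control, with Cdc25a, Ccnd1 and Ccnd2 below it.

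Proliferation markers had promoters of nearly equal height. Mki67, whose product Ki-67 marks cycling cells, had 64 tags in control and 59 in Ngn3-OE (log2 ratio -0.09, -0.63 to 0.44). Top2a, the topoisomerase that untangles chromosomes before they separate, had 47 and 44 tags (-0.07, -0.70 to 0.55). Both intervals included 0.

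Ccnd2 and Ccnd1 gave the lowest ratios of the G1 genes at the strongest promoter peak. Ccnd2 had 17 tags in control and 10 in Ngn3-OE at its start-site peak (log2 ratio -0.74, -2.03 to 0.47), at ranks 68.3 and 36.1. At the strongest promoter peak of each list, Ccnd1 had 39 tags in control and 27 in Ngn3-OE (-0.51, -1.27 to 0.24), although these are different intervals, within the gene in control and upstream of it in Ngn3-OE. All of these values are within counting error of no difference.

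The Ccnd1 locus showed the same side at most of its shared regions. Tags in control and Ngn3-OE were 39 and 27 upstream of the gene (chr7:144941335-144941792), 23 and 19 farther upstream, 25 and 19 at the start site, 39 and 26 within the gene (chr7:144937596-144937754) and 23 and 17 farther in. The sixth region, near the end of the gene, went the other way with 14 and 20. Summed over the 6 regions there were 163 tags in control and 128 in Ngn3-OE (log2 ratio -0.32, -0.67 to 0.02), and the interval included 0.

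Regions of Ccnd2 and Ccnd3 went either way. The 6 shared regions at Ccnd2 summed to 71 tags in control and 85 in Ngn3-OE (log2 ratio 0.28, -0.19 to 0.76), and the interval included 0. Within Ccnd2, 2 intron regions had more tags in Ngn3-OE, 13 against 5 at chr6:127142152-127142293 (log2 ratio 1.40, -0.18 to 3.24) and 19 against 10 at chr6:127133735-127134201 (0.95, -0.23 to 2.22), while a region near the start of the gene had 27 and 26. Ccnd3 had 73 and 71 tags at chr17:47593308-47593570, at an internal start site (-0.02, -0.51 to 0.48). Its strongest Ngn3-OE promoter peak, with 81 tags against 56 in control (0.56, 0.05 to 1.07), lay 10 bp from the start site of the neighbour Taf8, a subunit of the general transcription factor TFIID, and at -2749 bp from a Ccnd3 start site.

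The partner kinases and E cyclins spanned a narrow range. Cdk4 had the highest ratio of the G1 group, with 123 tags in control and 141 in Ngn3-OE (log2 ratio 0.22, -0.14 to 0.58), and Cdk6 had 58 and 57. Ccne1 had 85 and 66 (-0.34), Ccne2 71 and 69, and Cdk2, the partner of the E cyclins, 72 and 62. Of the 8 genes of this group 2 were above 0 and 5 below, with a median of -0.10. One of those above 0 was Ccnd3 (0.17, -0.30 to 0.65), for which different intervals were compared, and its fixed region, given above, was at -0.02.

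Cdk6 held the widest spread of any member, as the plot of its summits by distance from the start site shows. Of its 19 shared regions, 14 had a higher depth-scaled height in Ngn3-OE, 4 a lower one and the start-site region was even, and summed over all of them there were 357 tags in control and 418 in Ngn3-OE (log2 ratio 0.25, 0.04 to 0.46). A pair of neighbouring intron regions ran against this: chr5:3451062-3451240 had 33 tags in control and 9 in Ngn3-OE (-1.85, -3.10 to -0.76), at ranks 88.5 and 45.6, and chr5:3451400-3451561 had 12 and 4 (-1.56, -3.65 to 0.16). They lie 106854 and 107176 bp into the gene from the nearest start site.

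Farther into Cdk6, chr5:3491221-3491493 had 7 tags in control and 16 in Ngn3-OE (log2 ratio 1.22, -0.14 to 2.74). In the last part of the gene, chr5:3527396-3527659 had 14 and 31 (1.17, 0.22 to 2.20), and this was the 2-fold region with the study's E-box consensus within 100 bp of its summit. The stronger of the lower pair held SOX letters beside its core E-box letters, as printed above.

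**Figure D3:**
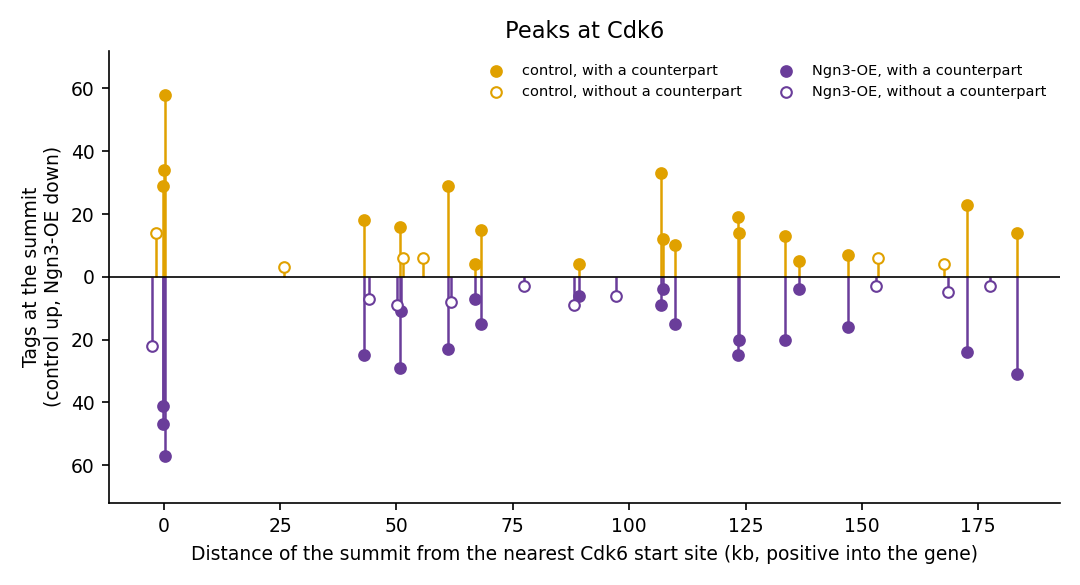
Tags at each peak summit at Cdk6 against the distance of the summit from the nearest Cdk6 start site in kb (x axis, positive into the gene), with control upward and Ngn3-OE downward; filled circles have a counterpart in the other library and open circles do not. The tallest stems stand at the start site (58 and 57 tags), and near 107 kb the control stem of 33 tags faces one of 9.

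The S, G2 and M cyclins and their kinase had strong promoters, at ranks of 94.4 or above in both lists. Ccna2 had 114 tags in control and 111 in Ngn3-OE (log2 ratio -0.01, -0.40 to 0.38), the lowest ratio of the group, Ccnb1 95 and 99, and Ccnb2 44 and 44. Cdk1 had the highest ratio, with 69 and 85 tags (0.32, -0.15 to 0.80). These genes act as cells enter mitosis, and the Cdk1 promoter printed above holds CCAAT 3 times and TTTGAA 2 times.

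Of the 24 control and 25 Ngn3-OE peaks at the CDK inhibitors, 0 were control-only and 2 were Ngn3-OE-only, both upstream of Cdkn1a, where 21.7% and 26.6% of all peaks were of these kinds. At the strongest promoter peak, Cdkn1a had 50 tags in control and 47 in Ngn3-OE (log2 ratio -0.07, -0.67 to 0.54), Cdkn1b had 74 and 68 (-0.10, -0.59 to 0.40) and Cdkn1c had 28 and 27 (-0.03, -0.85 to 0.79). Of the INK4 members, Cdkn2c had 39 and 46 (0.26, -0.39 to 0.92) and Cdkn2d had 114 and 124 (0.15, -0.23 to 0.53). No inhibitor promoter therefore differed beyond counting error, and a 2-fold higher Ngn3-OE value lay outside the interval for each of the 5.

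The exception among the inhibitors was outside the promoter. A region 3087 bp upstream of the Cdkn1b start site, chr6:134917275-134917378, had 11 tags in control and 24 in Ngn3-OE (log2 ratio 1.15, 0.07 to 2.33), at ranks 9.78 and 70.1. The low end of this interval was smaller than the 0.11 by which scaling to the median of all shared regions, given further on, lowers each ratio. The Ngn3-OE-only peak with the E-box consensus upstream of Cdkn1a, at chr17:29087043-29087150, had 5 tags (1.62 to 11.7) and lay 3858 bp from the start site. In the other direction, a region within Cdkn1a at chr17:29095421-29095770 had 30 tags in control and 17 in Ngn3-OE (-0.80, -1.75 to 0.11).

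**Figure D4:**
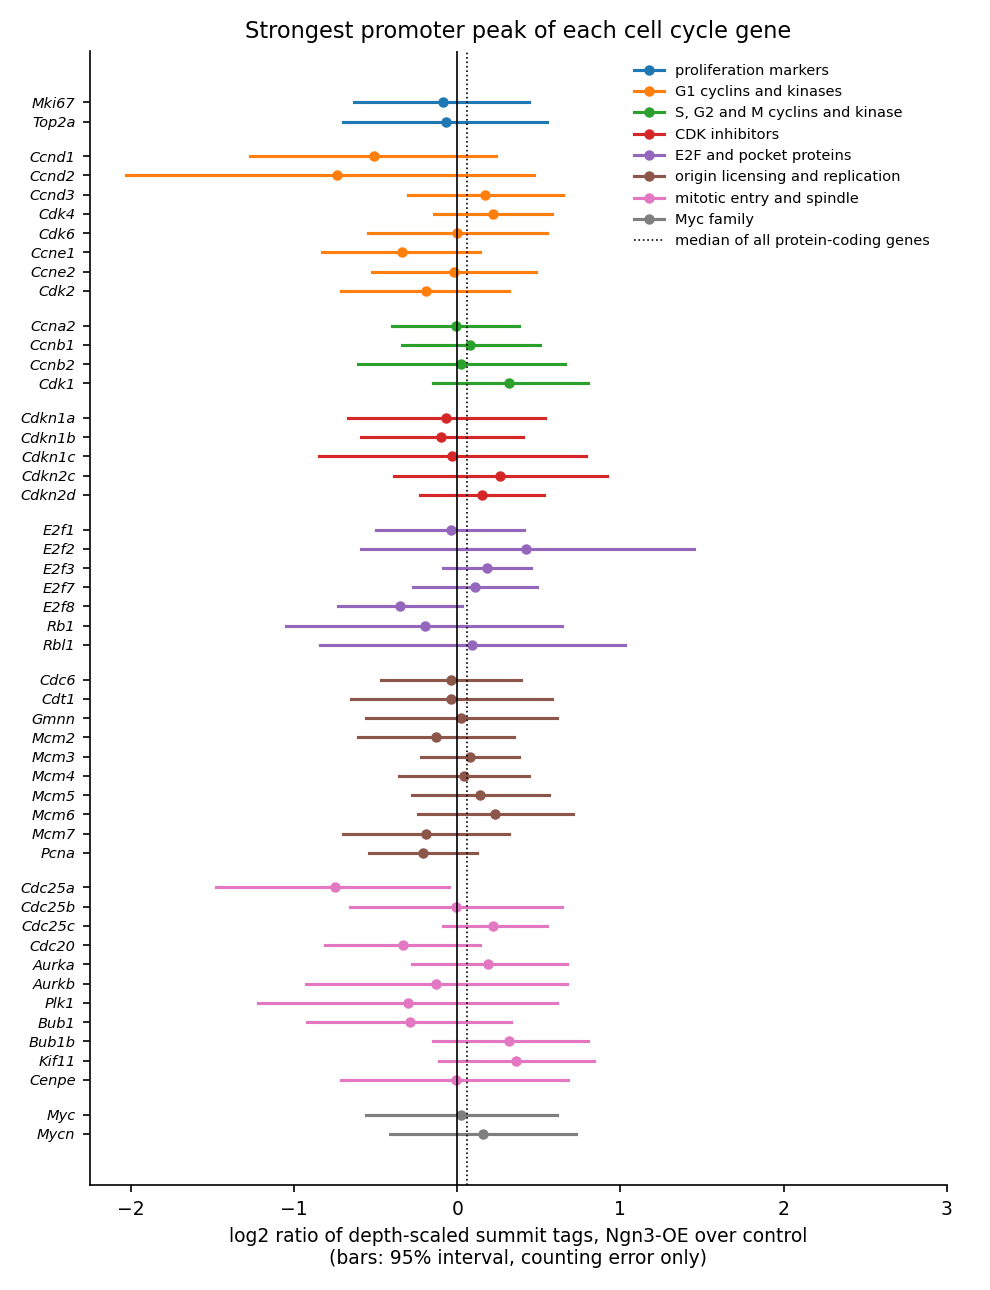
log2 ratio of depth-scaled summit tags, Ngn3-OE over control (x axis), at the strongest promoter peak of each of 49 cell cycle genes (rows, coloured by role); dots are ratios, bars 95% intervals for counting error only, and the dotted line is the median of all protein-coding genes (0.06). All intervals cross 0 except that of Cdc25a, at -0.75.

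E2F and pocket genes held both the strongest and some of the weakest promoters. E2f3, an activating E2F, had 212 tags in control and 236 in Ngn3-OE (log2 ratio 0.18, -0.09 to 0.45), the highest of all members. E2f2 had the lowest control value, 16, against 21 in Ngn3-OE (0.42, -0.59 to 1.45), the highest ratio of the members. E2f1 had 87 and 83, and the repressor E2f7 had 113 and 120.

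E2f8, an atypical E2F that represses transcription, had the lowest ratio of this group. Its start-site peak had 136 tags in control and 105 in Ngn3-OE (log2 ratio -0.35, -0.73 to 0.03). A second promoter region 113 bp upstream of the nearest start site, chr7:48881657-48881754, had 25 and 11 (-1.16, -2.33 to -0.09), at ranks 71.4 and 22.6. Both regions together gave 161 and 116 tags (-0.45, -0.81 to -0.10), and the second lies inside the E2f8 window printed above, around its CCAAT letters.

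E2f1 was even at its promoter and lower upstream. The region 7696 bp upstream of its start site, chr2:154577440-154577703, had 41 tags in control and 19 in Ngn3-OE (log2 ratio -1.09, -1.95 to -0.27), at ranks 90.5 and 78.4, and a region at 4501 bp upstream had 26 and 14 (-0.87, -1.92 to 0.12). The pocket protein genes had low promoters, with 28 and 24 tags at Rb1 and 21 and 22 at Rbl1. An intron region of Rbl1, chr2:157181540-157181765, had 7 tags in control and 18 in Ngn3-OE (1.39, 0.06 to 2.89). Another intron region with an interval above 0 was in E2f3, with 32 and 53 tags at chr13:29926256-29926405 (0.75, 0.09 to 1.43).

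Genes of origin licensing and replication kept strong promoters in both libraries, with ranks of 92.6 or higher in control and of 91.4 or higher in Ngn3-OE. Pcna, the sliding clamp of the DNA polymerases, had the lowest ratio, with 169 tags in control and 144 in Ngn3-OE (log2 ratio -0.21, -0.54 to 0.12), and Mcm6 had the highest, with 71 and 82 (0.23, -0.24 to 0.71). The other helicase subunits had 79 and 71 (Mcm2), 181 and 188 (Mcm3), 106 and 107 (Mcm4), 94 and 102 (Mcm5) and 73 and 63 tags (Mcm7). Cdc6 had 95 and 91, Cdt1 48 and 46, and Gmnn, the inhibitor of Cdt1, 52 in each library. The 10 genes with a promoter peak had a median of -0.01, and 5 were above 0 and 5 below.

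A neighbour's promoter in the Pcna window stood apart from Pcna itself. At the start site of Cds2, at -9741 bp from that of Pcna, there were 103 tags in control and 148 in Ngn3-OE (log2 ratio 0.55). The promoter peaks of Mcm4 (with Prkdc), Mcm7 (Ap4m1), Cdc25b (Spef1) and Aurka (Cstf1) also lie within 1 kb of the start site of a gene on the opposite strand, and their height cannot be divided between the genes of each pair.

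Genes of mitotic entry and the spindle contained the member with the lowest ratio. Cdc25a, the phosphatase that removes inhibitory phosphates from the CDKs, had 48 tags in control (35.4 to 63.6) and 28 in Ngn3-OE (18.6 to 40.5) at chr9:109875255-109875595, a log2 ratio of -0.75 (-1.48 to -0.05), at ranks 93.8 and 84.4. Summed over its 5 shared regions there were 105 and 86 tags (-0.26, -0.69 to 0.16), with 3 regions higher and 2 lower in Ngn3-OE. Its relatives were even or higher, with 43 and 42 tags at Cdc25b and 154 and 177 at Cdc25c. In the Cdc25c window the promoter of the neighbour Fam53c, at chr18:34758974-34759086, had 39 and 19 tags (-1.01, -1.89 to -0.19).

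Kif11, the kinesin that pushes spindle poles apart, had the highest ratio of this group, with 69 tags in control and 87 in Ngn3-OE (log2 ratio 0.36, -0.11 to 0.84). Bub1b had 70 and 86, and Aurka, a centrosomal kinase, 72 and 81. Cdc20, an activator of the anaphase-promoting complex, had 87 and 68, Bub1 51 and 41, Plk1 25 and 20, Cenpe 38 and 37, and Aurkb, the kinase of the chromosomal passenger complex, 30 and 27. Of the 11 genes 4 were above 0 and 7 below.

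Sums over all shared regions of a gene were also compared. The interval of the summed ratio lay above 0 for 2 of the 49 members with a shared region, Cdk6 and Bub1b (123 tags in control and 159 in Ngn3-OE over 4 regions, log2 ratio 0.39, 0.05 to 0.75), where it did for 7.95% of 17298 protein-coding genes. It lay below 0 for 3, namely E2f8, E2f1 (-0.29, -0.56 to -0.01) and Aurkb (233 and 184 tags over 8 regions, -0.32, -0.60 to -0.03), where it did for 1.65%. These 5 were named after their values were seen, and the sums hold regions of neighbours, such as the Borcs6 promoter at Aurkb. Scaling to the median of all shared regions, given further on, lowers each log2 ratio by 0.11. The low ends at Cdk6 and Bub1b were smaller than this shift. So were the high ends of the sums at Ccnd1 (-0.32, -0.67 to 0.02), Ccne1 (-0.37, -0.80 to 0.05) and Cdc20 (-0.28, -0.64 to 0.09).

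The Myc genes were even at their strongest promoter peak, with 52 tags in each library at Myc and 52 and 57 at Mycn (log2 ratios 0.02, -0.56 to 0.61, and 0.16, -0.41 to 0.73). At Myc this peak lay 1945 bp from the start site and 144 bp from that of another annotated gene, Gm37947. The 3 regions within 200 bp of a Myc start site had 20 and 22 tags, 19 and 26 (0.48, -0.43 to 1.41) and 16 and 28 (0.83, -0.10 to 1.82), so that each was higher in Ngn3-OE with an interval that included 0. Both encode factors that drive growth and G1 progression. Mycn had 6 shared regions, and the tags moved either way among them, from 38 and 25 (-0.58, -1.37 to 0.19) to 31 and 42 (0.46, -0.24 to 1.18).

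Across the members, 227 regions were found in both libraries, a region being a group of overlapping peaks compared by its highest summit in each library, and 194 of them had at least 10 tags in either. In Ngn3-OE 5 regions (2.58%, 1.11 to 5.89) were 2-fold or more higher, where 7.0% of all 62661 such regions were, and 5 (2.58%) were 2-fold or more lower, where 4.94% were. The higher ones were those at Ccnd2, Rbl1, Cdk6 (a pair) and Cdkn1b, and the lower ones those at Cdk6 (a pair), E2f8, E2f1 and Fam53c in the Cdc25c window. In 3 of the 10, namely the Ccnd2 region and 1 of each Cdk6 pair, the interval of the ratio included 0. The limit of 10 tags can be passed through the library where a region is high. The higher regions at Ccnd2, Rbl1 and 1 of the Cdk6 pair passed it in Ngn3-OE alone, and both lower Cdk6 regions in control alone. Over all 90423 regions found in both libraries the median log2 ratio was 0.11, and the members' medians were 0.02 at promoters, against 0.08, and 0.02 away from them, against 0.13. Scaling the libraries to the median of all such regions in place of depth moved the median ratio at the strongest promoter peak of the members from -0.01 to -0.119 and the 2-fold counts to 5 higher and 6 lower. The share of all regions past 2-fold under this scaling is not given. Among the intervals given above, some low ends were smaller than the 0.11 by which this scaling lowers each ratio. These were at Cdk6 and Bub1b in sum, and at the single regions of Cdkn1b, Rbl1, E2f3 and Taf8. The same held for the high ends at Ccnd1, Ccne1 and Cdc20 in sum and at the E2f8 start site.

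The full E-box consensus of the study was rare at these genes. It lay within 100 bp of the summit of 3 of the 270 control peaks (1.11%, 0.379 to 3.22) and 9 of the 270 Ngn3-OE peaks (3.33%, 1.76 to 6.21), against 3.65% and 4.27% of all peaks. The members' shares were 0.741% and 2.22% within 50 bp and 1.85% and 4.81% within 250 bp. None of the 38 control-only peaks had it (interval up to 9.18%), against 2.14% of all control-only peaks. Of the 40 Ngn3-OE-only peaks 6 had it (15%, 7.06 to 29.1), against 4.66% of all Ngn3-OE-only peaks.

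These 6 were at Cenpe, Mcm5, Cdkn1a, Rb1, E2f3 and Cdk6, none of them at a promoter. They were low, with 10 tags at Cenpe, 6 at Mcm5, 5 at Cdkn1a and Rb1 and 3 at E2f3 and Cdk6, and at Rb1 and E2f3 the match fell outside the peak itself. The SOX letters were in 22 of the control peaks (8.15%, 5.44 to 12) and 20 of the Ngn3-OE peaks (7.41%, 4.85 to 11.2), against 8.8% and 7.41% of all peaks. Of the control-only peaks 2 of 38 had them (5.26%, 1.46 to 17.3), against 12.3% of all control-only peaks, and of the Ngn3-OE-only peaks 2 of 40 (5%, 1.38 to 16.5), against 6.64% of all.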

How the data were processed

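Per the labels and the study's methods, the authors sorted GFP-positive cells and made 1 ATAC-seq library per group. The submitters' processing notes name Trimmomatic, Bowtie2, Picard, SAMtools, bedtools, deepTools and MACS2 and the build mm10. Duplicates, mitochondrial reads and blacklisted regions were removed, fragments up to 120 bp were kept, reads were shifted by +4 and −5 bp for the Tn5 cut, and MACS2 peaks were called per library at q < 0.05. These steps restrict the lists to nucleosome-free DNA.

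The deposited peak lists give, for each summit, a score, a fold enrichment (a ratio over local background), −log10 p and −log10 q values, and the offset of the summit. The score was not used. Lines with the same interval were merged and placed by the summit of highest −log10 q. The number of tags at a summit was solved as the whole number that fits the deposited fold enrichment and −log10 p under a Poisson background, and 100% of summits were solved within 0.01. Tags can be both ends of a fragment and are not independent molecules. Promoter meant a summit within 3 kb of a start site of the GENCODE M21 basic transcript set. Intervals were Wilson (shares), exact Poisson (tags) and exact binomial (ratios), at 95%. Python 3.11.15, scipy 1.17.1 and blastn 2.17.0 were used, and the steps were tested on simulated data. The lists give no total read number.

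The 50 genes, their roles and the motif letters were chosen with earlier results of these data known. Named with full values were all CDK inhibitors and D cyclins, the members with the highest and lowest promoter ratio of each role, the 5 peaks of each library without a counterpart that had the highest −log10 q, and regions past 2-fold. Alternatives changed the peak threshold, window, overlap rule, promoter width, scaling, fold limit, tag minimum and motif window.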

Additional observations from a re-analysis of the deposited data

How the results depend on the processing

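No paired analysis was possible because each group had 1 library, and for the same reason no replicate could be left out. Of 92 values recomputed under other settings, 50 stayed within the set limit and 42 did not. Peak counts change by construction with the window and list length, as do region counts with the fold limit. An overlap of 50% likewise raises the unshared counts by construction. Why other values changed was not tested. Gene bodies alone held 117 control and 119 Ngn3-OE peaks (79.5% and 79.8% shared, 24 and 24 unshared) and left 8 members with more Ngn3-OE-only peaks. With 50 kb on each side there were 643 and 645 peaks (80.6% and 80.3% shared, 125 and 127 unshared) and 20 such members. The 50000 strongest peaks of each list left 156 and 151 peaks, 20 and 16 unshared, with 89.4% of Ngn3-OE peaks shared. An overlap of 50% of both peaks gave 77.4% shared and 61 unshared in each library. A −log10 q of 5 asked of both lists gave 22 control-only and 29 Ngn3-OE-only peaks, a log2 ratio of 0.399, whereas the 50000 strongest peaks turned this ratio to -0.322. Asked of the queried list only, it gave 95.7% and 95% shared, 9 and 11 unshared, and 5 members on either side. At 1.5-fold, 18 regions were higher and 15 lower; with at least 20 tags 2 were higher and 4 lower. Pairing each peak with the strongest overlapping peak, an alternative chosen after seeing the data, gave 9 higher and 5 lower. No share over all genes, peaks or regions is given at these settings, so the counts under them have no background beside them. SOX letters were in 5.19% and 4.44% of peaks within 50 bp and in 15.2% of each library within 250 bp. Core letters gave 15.6% and 18.1% for the E-box and 21.1% and 19.6% for SOX. Peaks of about 5 tags are near what the lists can detect, so a peak without a counterpart may be present below the threshold in the other library.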

Other observations

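A further 59 genes of replication, mitosis and cell cycle arrest that are not among the 50 were examined in the same way. They held 228 control and 240 Ngn3-OE peaks, and 28 and 39 of these had no counterpart in the other library, where 21.7% of all control and 26.6% of all Ngn3-OE peaks had none. At the strongest promoter peak of the 58 genes that had one in both libraries, the median log2 ratio of Ngn3-OE over control was 0.05 (interquartile range -0.07 to 0.23). The interval of the ratio lay above 0 for 3 of them and below 0 for none, beside 2.52% and 1.05% of all protein-coding genes. Those 3 were Gadd45g, a stress-response gene linked to growth arrest, with 38 tags in control and 64 in Ngn3-OE (0.78, 0.17 to 1.40), the repressor E2f6, with 19 and 35 (0.91, 0.06 to 1.79), and Gins4, a subunit of the replicative helicase complex, with 144 and 190 (0.42, 0.10 to 0.75). The low ends at E2f6 and Gins4 were smaller than the 0.11 by which scaling to the median of all shared regions lowers each ratio. These genes have 1 library per group like the rest, and no test of the condition could be made.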
